A study of Mus musculus with 12 samples.

Results

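The potassium channel family of the mouse dorsal root ganglion (DRG) is described here as the 72 protein-coding genes whose symbol starts with Kcn and whose mean level was at least 1 CPM over 12 libraries, where CPM is the estimated count of a gene per 1000000 of the library's total over Ensembl genes. They were taken from 92 protein-coding Kcn genes in a table of 38594 Ensembl genes. Of the 72, 60 encode pore-forming or silent alpha subunits and 12 encode auxiliary subunits. The members just inside the threshold were Kcnn3 with 1.102 CPM, Kcnh5 with 1.31 CPM and Kcnj8 with 1.34 CPM. The genes just outside it were Kcnq1 with 0.944 CPM, Kcnd2 with 0.907 CPM and Kcnk9 with 0.779 CPM. All 72 members passed the filter on low values used for the tests.

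Polyadenylated RNA was sequenced from lumbar DRG, which hold the cell bodies of sensory neurons and their satellite glia, from male C57BL/6J mice 6 to 12 weeks of age that the sample titles call naive. The ganglia were taken at zeitgeber time (ZT) 2, 8, 14 or 20, in hours after lights on, with 3 libraries at each time, and no other treatment or allele is named for any group. The series title names clock genes of nociceptors together with excitability and pain, so the comparison asks whether the transcripts that set the excitability of these neurons differ with time of day. The labels do not say that the libraries came from separate animals, so p-values measure only the spread between these libraries, and because the library numbers follow the order of the times, any batch of collection or preparation and time of day cannot be told apart.

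Potassium channels let potassium leave the cell and so hold the resting potential, end each action potential and set how readily a neuron fires again. Voltage-gated channels open on depolarization, calcium- and sodium-activated channels respond to ions that enter during firing, two-pore-domain channels carry the background leak, and inward rectifiers pass current near rest or, in satellite glia, take up potassium from around the cell body. In sensory neurons, loss of these currents is known to make the cells more excitable, and several of the channels are studied as targets in pain.

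The deposited values were taken to be coverage times a constant of each library, and so per transcript length. Low values of genes with 1 transcript were converted to reads on this scale. Only 14.9% to 16.4% of them per library fell close to a whole number, so this check bears the scale out only weakly. No source used here states this scale. The comparisons of level between different genes and subfamilies rest on it. In units of 1000000, library totals over Ensembl genes were 89.6 to 124.7 estimated counts, corresponding to roughly 47.9 to 67.1 reads in the same unit. Reads of a gene were approximated from the median length of its annotated transcripts, which was 601 bases for Kcnab2. By this approximation a member rested on a mean of 47.0 reads per library for Kcnj13 up to 18929 for Kcnab2, with a median of 1496. All 10 neuronal markers were measured, with a summed level of 19160 to 20423 CPM per library. Of 7 spinal cord markers, 4 were measured, with a sum of 5.08 to 7.41 CPM. Skeletal muscle markers, 12 of 12 measured, summed to 195 to 1315 CPM, both extremes being libraries of ZT20. The highest of the 12 was Pvalb, with a mean of 192 CPM, followed by Acta1 with 86.7 CPM. Pvalb is not confined to muscle, so the sum does not measure muscle RNA alone, least of all where it is low. In bulk tissue, fewer cells of a type and less RNA per cell cannot be told apart.

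The members summed to 2982 CPM on average, with 2887 CPM in the lowest library and 3109 CPM in the highest. A member's median level was 13.6 CPM, and 6 members stood at 100 CPM or more, 44 at 10 CPM or more and 9 below 2 CPM. The 6 most abundant were Kcnab2, Kcnip4, Kcnip3, Kcnip2, Kcnd1 and Kcnab1, of which only Kcnd1 forms a pore. Auxiliary subunits made up 52.6% of the summed level although they are 12 of the 72 genes, and the Kcnab genes alone made up 30.5%. Much of this was Kcnab2: the other 11 auxiliary genes summed to 793 CPM, 26.6% of the level of all members. Within the 60 pore-forming and silent subunits, which summed to 1413 CPM, no subfamily dominated: Kcnd took 13.0%, Kcnc 12.5%, the silent subunits 12.4%, Kcnh 12.0%, Kcna 11.0%, Kcnk 10.2%, Kcnj 8.34%, Kcnq 6.42%, Kcnb 4.93%, Kcnn 4.21%, Kcnt 3.50% and Kcnma with Kcnu 1.49%.

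**Figure D1:**
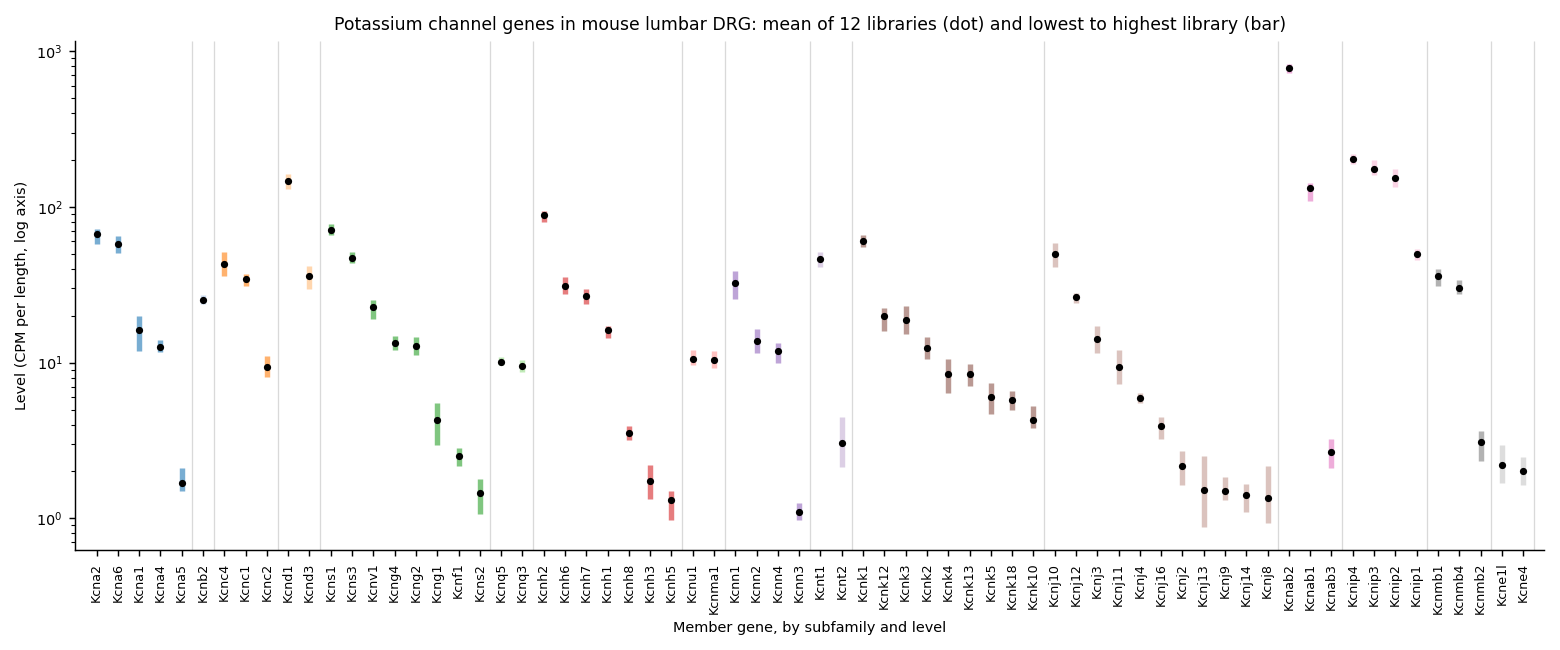
Level of 68 of the 72 members in CPM per length on a log axis, grouped by subfamily and ordered by level within it; dots are means of the 12 libraries and bars run from the lowest to the highest library. Kcnab2 stands alone at 776 CPM, and the members of most subfamilies are spread over more than 1 decade of the axis.

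Among the low-threshold voltage-gated channels of the Kcna subfamily, which sit beside the nodes of myelinated axons and restrain repetitive firing, Kcna2 was highest with a mean of 67.4 CPM (57.9 to 72.6 over the 12 libraries) and Kcna6 next with 57.7 CPM (50.5 to 65.0). Their library ranges overlapped. Kcna1, the founding member of the subfamily and the gene mutated in episodic ataxia with myokymia, stood at 16.1 CPM (11.8 to 20.0), and Kcna4, which carries a fast-inactivating A-type current, at 12.6 CPM (11.8 to 14.0). Kcna5 was near the threshold at 1.69 CPM. Kcna5, Kcna1 and Kcna6 lie next to each other on chromosome 6 (GRCm38), at 126532551 to 126535412, 126640397 to 126646384 and 126708329 to 126740674, and their levels there differed in every library, with Kcna6 above Kcna1 and Kcna1 above Kcna5.

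Delayed rectifiers of the Kcnb subfamily, which also tether the endoplasmic reticulum to the plasma membrane, included Kcnb2 at 25.4 CPM (23.97 to 27.2). The silent subunits do not form channels alone but join Kcnb proteins and shift their gating. Kcns1, a silent subunit of sensory neurons for which pain-related variants have been described, was the highest of the 8 at 70.6 CPM (65.7 to 78.0), above Kcnb2 in every library. Kcns3 followed at 47.2 CPM (43.9 to 50.97), then Kcnv1 at 22.7 CPM, Kcng4 at 13.4 CPM and Kcng2 at 12.7 CPM, while Kcng1, Kcnf1 and Kcns2 lay between 1.45 and 4.30 CPM.

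Channels of the Kcnc subfamily, which allow narrow action potentials, included Kcnc4 at 43.0 CPM (35.8 to 51.5), Kcnc1 at 34.5 CPM (31.1 to 37.2) and Kcnc2 at 9.37 CPM (8.07 to 11.0). Kcnc4 is the member of this subfamily that shapes the nociceptor action potential. Its library range overlapped that of Kcnc1, whereas Kcnc2 lay below both in every library.

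A-type channels of the Kcnd subfamily open below the firing threshold and delay the next spike. Kcnd1, at 147 CPM (129 to 163), was the most abundant pore-forming member, and its lowest library lay above the highest library of every other pore-forming member. Kcnd3 stood at 36.1 CPM (29.8 to 41.5) and Kcnd2 was below the threshold. The Kcnip genes encode the calcium-binding subunits that bring Kcnd proteins to the membrane. Kcnip4 stood at 204 CPM (189 to 218), Kcnip3, whose product is also known as a transcriptional repressor, at 176 CPM (160 to 200), Kcnip2 at 154 CPM (133 to 175) and Kcnip1 at 50.1 CPM (45.6 to 53.5). Their sum of 585 CPM exceeded the 184 CPM of the Kcnd genes in every library.

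The Kcnab genes encode cytoplasmic beta subunits that bind Kcna channels and help to place them on axons. Kcnab2 had 776 CPM (728 to 829), Kcnab1, which adds fast inactivation, 132 CPM (108 to 143), and Kcnab3 2.67 CPM (2.11 to 3.24). Kcnab2 was therefore above every other member in every library, and the Kcnab sum of 911 CPM stood beside a Kcna sum of 156 CPM.

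The Kcnq genes carry the M-current, a slow current that brakes repetitive firing and is shut by G protein-coupled receptors. Kcnq5 had 10.2 CPM (9.60 to 10.9) and Kcnq3, a subunit of the classical M-channel, 9.56 CPM (8.65 to 10.4), and their ranges overlapped. In the Kcnh group of ether-a-go-go channels, Kcnh2, the channel of cardiac repolarization, led at 88.8 CPM (79.8 to 94.5), followed by Kcnh6 at 30.8 CPM, Kcnh7 at 26.9 CPM and Kcnh1 at 16.2 CPM. Kcnh8, Kcnh3 and Kcnh5 lay between 1.30 and 3.54 CPM.

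Calcium-activated channels were led by Kcnn1, a small-conductance channel of the after-hyperpolarization, at 32.6 CPM (25.6 to 38.8), with Kcnn2 at 13.8 CPM, Kcnn4 at 11.9 CPM and Kcnn3 at 1.102 CPM. Kcnma1, the large-conductance channel opened by calcium and voltage, had 10.5 CPM (9.18 to 11.8). Its relative Kcnu1, known as the channel of sperm, had a similar level of 10.6 CPM (9.69 to 12.0), and the 2 ranges overlapped. The beta subunits of Kcnma1 were more abundant than the pore gene in every library in the cases of Kcnmb1, at 35.8 CPM (31.3 to 40.1), and Kcnmb4, at 30.2 CPM (27.6 to 34.0). Kcnmb2 had 3.08 CPM (2.33 to 3.66). Kcnmb1 lies inside the span of Kcnip1 on chromosome 11 (33963013 to 33973641 within 33629339 to 33993152). The sodium-activated channel Kcnt1, which damps firing in sensory neurons, stood at 46.4 CPM (41.1 to 51.2), against 3.07 CPM (2.15 to 4.51) for Kcnt2.

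Of the 9 two-pore-domain leak channels, Kcnk1, the founding gene of the mammalian subfamily, was highest at 60.2 CPM (55.2 to 66.0), above all the others in every library. Kcnk12 had 20.1 CPM and Kcnk3, an acid-sensitive leak channel, 18.7 CPM. The mechanically and thermally gated Kcnk2 and Kcnk4 had 12.4 CPM (10.5 to 14.6) and 8.48 CPM (6.40 to 10.6), Kcnk13 had 8.45 CPM and Kcnk10 had 4.29 CPM. Kcnk5, an alkaline-activated leak channel, had 6.05 CPM (4.66 to 7.35), and Kcnk18, a calcineurin-regulated leak channel known from sensory ganglia and migraine, had 5.76 CPM (4.95 to 6.58).

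Inward rectifiers formed the largest subfamily by number, with 11 genes, and Kcnj10 made up much of its sum of 118 CPM. Kcnj10, the channel through which satellite glia buffer potassium, had 50.1 CPM (40.9 to 58.8). Its neighbour Kcnj9 on chromosome 1 (172320501 to 172329318, with Kcnj10 at 172341210 to 172374085) had 1.49 CPM. Kcnj12 followed at 26.5 CPM (24.1 to 28.2), and Kcnj3, a G protein-gated channel opened by opioid and other receptors, had 14.2 CPM (11.6 to 17.1). Of the 2 pore genes of ATP-sensitive channels, Kcnj11 had 9.37 CPM (7.33 to 12.0) and Kcnj8 1.35 CPM (0.929 to 2.18). The other 5 lay between 1.41 and 5.89 CPM. The Kcne genes, small single-pass subunits that slow or silence several channels, were the least abundant subfamily, with Kcne1l at 2.19 CPM (1.69 to 2.97) and Kcne4 at 2.00 CPM (1.64 to 2.47).

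Across the 4 times, the summed levels lay close together. In the order ZT2, ZT8, ZT14 and ZT20, the members summed to 2959 ± 63, 3019 ± 93, 2979 ± 34 and 2972 ± 79 CPM (SD, n = 3 each). These sums overlapped between all times. The subfamily sums differed between their highest and lowest time by factors of 1.01 for the silent subunits to 1.09 for Kcnn. Pore-forming and silent subunits together stood at 1422 ± 46, 1416 ± 47, 1418 ± 24 and 1397 ± 57 CPM at ZT2, ZT8, ZT14 and ZT20, and auxiliary subunits at 1537 ± 17, 1603 ± 51, 1560 ± 54 and 1575 ± 26 CPM. The auxiliary sums of the 3 libraries of ZT2, 1521 to 1556 CPM, lay just below those of ZT8, 1560 to 1659 CPM, and the other times overlapped both.

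**Figure D2:**
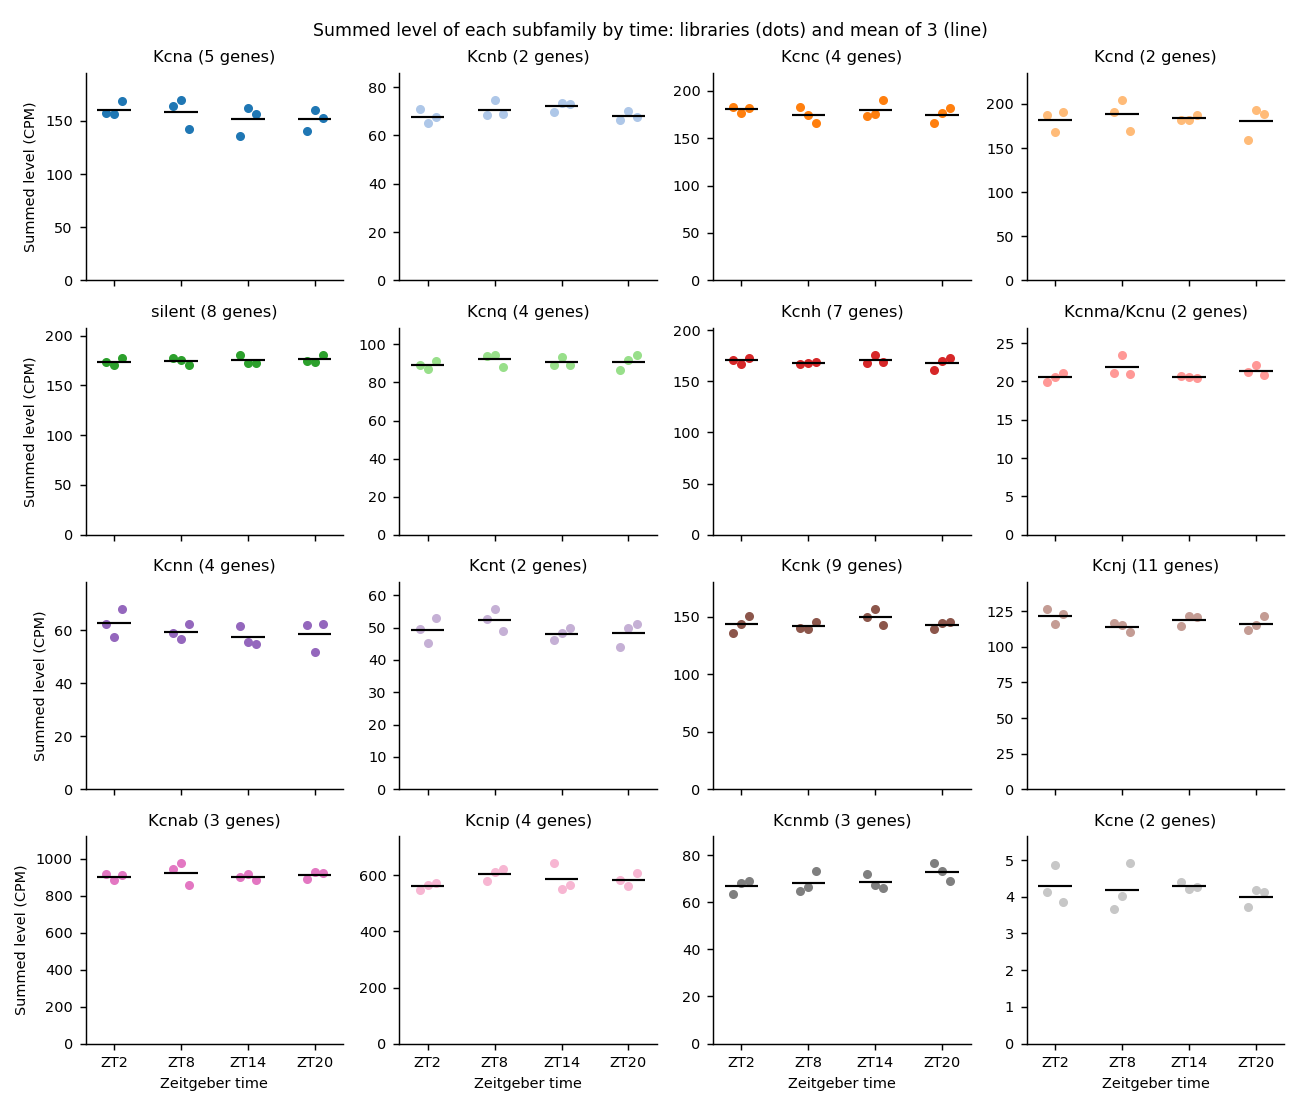
Summed level in CPM of the members of each subfamily at the 4 times; dots are libraries, lines are means of 3, and every axis starts at 0. The Kcnab sum stayed between 858 and 975 CPM and the Kcnip sum between 549 and 643 CPM over all 12 libraries.

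No member passed any of the 5 tests by edgeR's quasi-likelihood F test with Benjamini-Hochberg adjustment over 25809 genes at a threshold of 0.05. For any difference between the 4 times, 0 of 72 members passed, against 0.0504% of all genes tested, and the lowest adjusted p was 0.420. For a 24-h cosine, 0 of 72 passed against 0.0659% of all genes, and the lowest adjusted p of edgeR was 0.620. For the 12-h alternation of ZT2 and ZT14 against ZT8 and ZT20, 0 of 72 passed against 0% of all genes. For ZT14 against ZT2, 0 of 72 passed against 0.0465%, and for ZT20 against ZT8, 0 of 72 against 0.0232%. So few genes passed over the whole table that a count of 0 among 72 is also what the background share gives.

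Unadjusted p-values under 0.05 by edgeR made up a smaller share of the members than of all genes in 4 tests and a larger one in the 12-h test, with no test of these shares. They numbered 4 of 72 for any difference (5.56%, against 6.19% of all genes), 2 for the 24-h cosine (2.78%, against 5.2%), 7 for the 12-h alternation (9.72%, against 7.44%), 3 for ZT14 against ZT2 (4.17%, against 5.19%) and 2 for ZT20 against ZT8 (2.78%, against 5.28%). By limma-trend, 0 members passed each test after adjustment, against 0.0736% of all genes for any difference, 0.0659% for the 24-h cosine, 0% for the 12-h alternation, 0.062% in the ZT14 to ZT2 pair and 0.0232% in the ZT20 to ZT8 pair. DESeq2 called 1 member, Kcnk5, for any difference, against 1.13% of all genes. In the other 4 tests it called 0 members, against 0.629% of all genes for the 24-h cosine, 0.442% for the 12-h alternation, 0.411% in the ZT14 to ZT2 pair and 0.264% in the ZT20 to ZT8 pair.

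Fitted 24-h amplitudes, the log2 distance from the mean to the peak of the cosine, were small. Their median was 0.05 over the 72 members, from 0.01 for Kcnab2 to 0.18 for Kcnk5 and Kcnt2, beside a median of 0.05 over the 13775 protein-coding genes with at least 1 CPM that were tested. The clock gene Arntl had an amplitude of 0.86 in the same fit (edgeR adjusted p = 0.000399). The mean at a member's highest time was 1.02 to 1.43 times that at its lowest time, with a median of 1.102, and this factor was under 1.2 for 62 of the 72. The 10 members at 1.2 or more were Kcnj8, Kcnj2, Kcnk5, Kcne4, Kcnt2, Kcnj16, Kcnab3, Kcnk4, Kcnn1 and Kcnj10. Of these, only Kcnj10 and Kcnn1 had a mean level above 10 CPM. The highest of the 4 means fell at ZT2 for 13 members, at ZT8 for 25, at ZT14 for 20 and at ZT20 for 14.

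**Figure D3:**
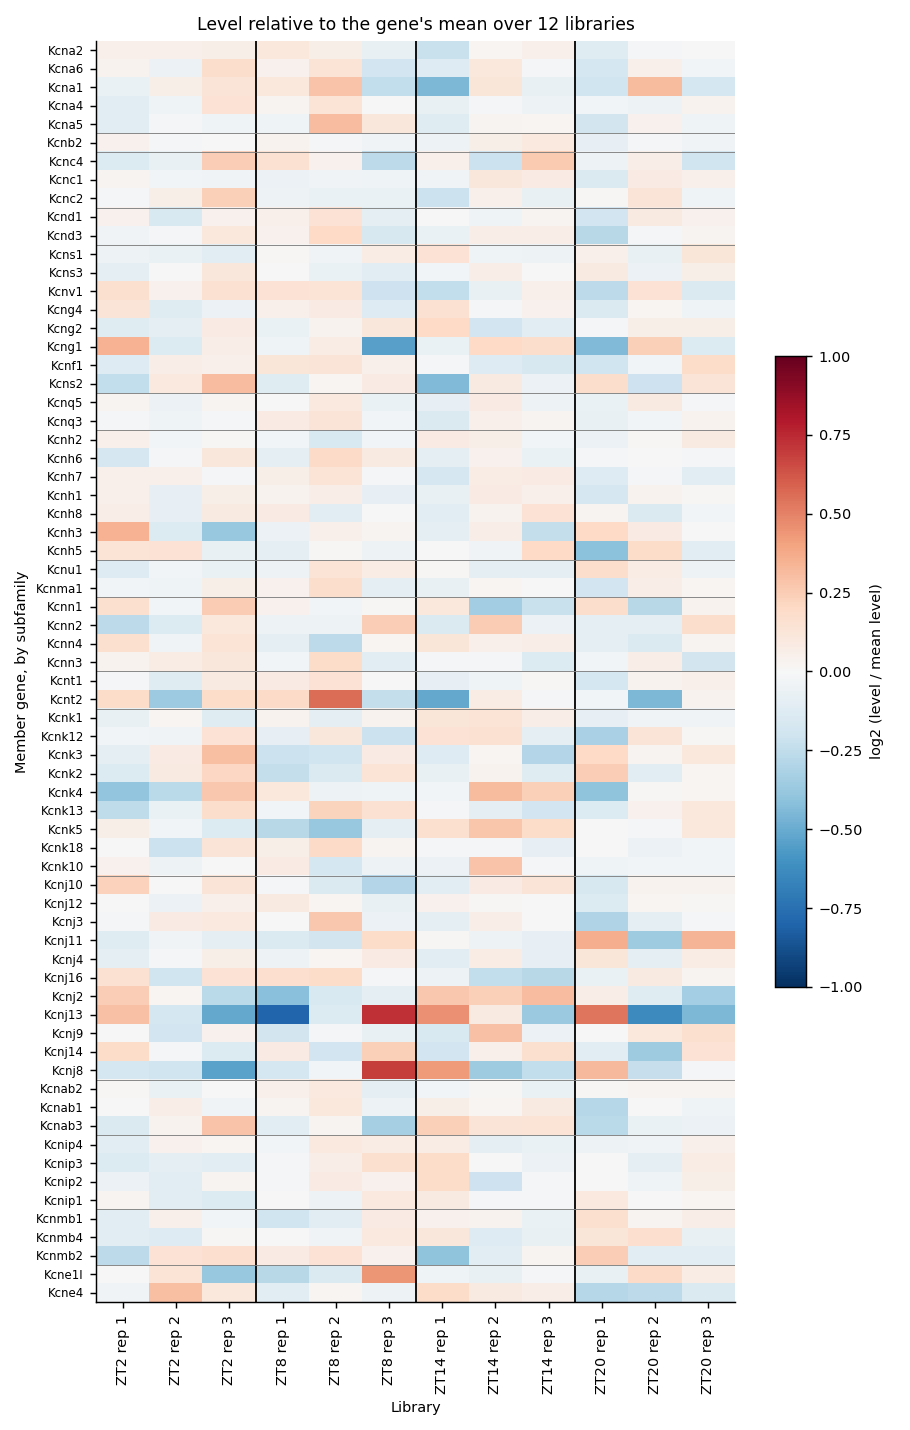
Level of the same 68 members in each library as log2 of its ratio to the gene's mean over 12 libraries, with members grouped by subfamily and libraries by time. Most cells are pale at every time, and the strongest colours belong to Kcnj13 and Kcnj8, 2 members under 2 CPM, and vary between libraries of the same time.

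Kcnk5 was the member with the lowest p in the any-time test. Its levels were 6.30, 5.94 and 5.498 CPM at ZT2, 5.00, 4.66 and 5.66 CPM at ZT8, 6.77, 7.35 and 6.86 CPM at ZT14 and 6.08, 6.00 and 6.504 CPM at ZT20. All 3 libraries of ZT14 lay above the other 9, and the libraries of ZT8 were low, overlapping those of ZT2 but not those of ZT20. The any-time p of edgeR was 0.00214, with an adjusted p of 0.420. The fitted amplitude was 0.18 ± 0.04 (SE) on the log2 scale with a peak at 17.3 h, an estimate from 4 times that are 6 h apart. The log2 difference was 0.24 ± 0.09 (SE) for ZT14 minus ZT2 and 0.28 ± 0.09 for ZT20 minus ZT8. By DESeq2 the any-time adjusted p was 0.0139 and by limma-trend 0.351, and over all settings tried it ran from 0.0139 to 0.810.

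Kcnk1, the most abundant leak channel, had 57.3, 61.1 and 55.2 CPM at ZT2, 61.5, 56.6 and 61.6 CPM at ZT8, 65.5, 66.0 and 62.9 CPM at ZT14 and 57.0, 58.9 and 58.8 CPM at ZT20. Again the 3 libraries of ZT14 lay above the other 9, by a small margin. The any-time p of edgeR was 0.0199 with an adjusted p of 0.697, and the amplitude was 0.08 ± 0.02 (SE). Kcnk1 and Kcnk5 were the 2 members with an unadjusted p under 0.05 for the 24-h cosine.

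Kcne4, whose product inhibits several voltage-gated channels, had 1.95, 2.47 and 2.16 CPM at ZT2, 1.86, 2.03 and 1.94 CPM at ZT8, 2.28, 2.13 and 2.097 CPM at ZT14 and 1.64, 1.67 and 1.82 CPM at ZT20. The 3 libraries of ZT20 lay below the other 9. Kcnj2, the classical strong inward rectifier, had 2.57, 2.197 and 1.80 CPM at ZT2, 1.63, 1.95 and 2.04 CPM at ZT8, 2.62, 2.57 and 2.69 CPM at ZT14 and 2.27, 2.00 and 1.72 CPM at ZT20. The libraries of ZT14 were the highest and close together, but overlapped with ZT2, where replicate 1 reached the same level. The any-time p of edgeR was 0.0286 for Kcne4, with an adjusted p of 0.742, and 0.0381 for Kcnj2, with an adjusted p of 0.775.

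**Figure D4:**
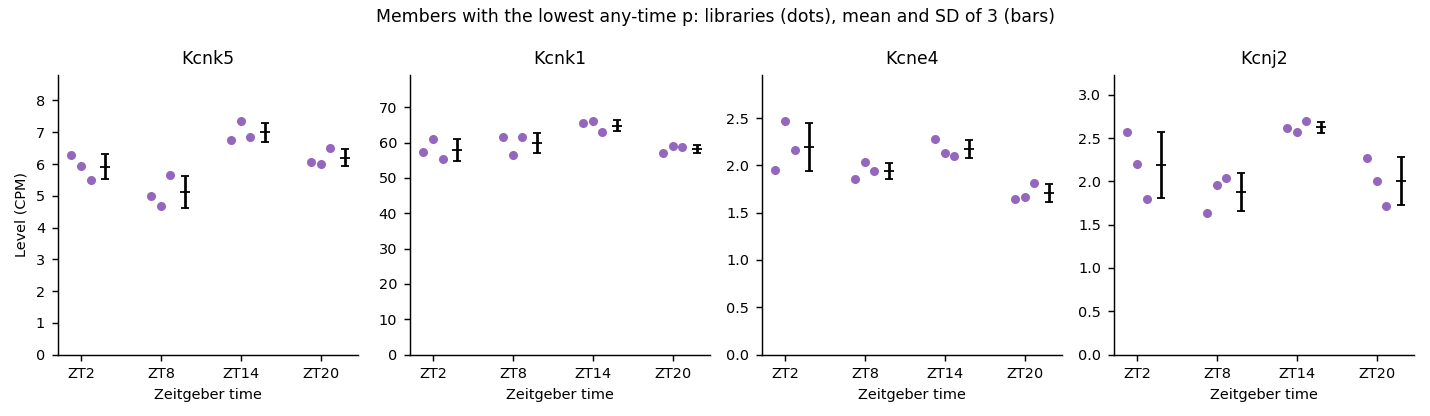
Level in CPM of the 4 members with an unadjusted any-time p under 0.05 at the 4 times; dots are libraries, bars are the mean and SD of 3, and every axis starts at 0. For Kcnk5 and Kcnk1 the dots of ZT14 lie above all others, and for Kcne4 those of ZT20 lie below all others; none of the 4 passed after adjustment by edgeR.

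The pair tests added 2 further members with an unadjusted p under 0.05. Kcnip3 had 160, 165 and 163 CPM at ZT2 and 200, 176 and 169 CPM at ZT14, so that the libraries of ZT2 lay below those of ZT14. At ZT8 it had 175, 184 and 197 CPM and at ZT20 176, 164 and 185 CPM. The log2 difference for ZT14 minus ZT2 was 0.16 ± 0.07 (SE), with an adjusted p of 0.923 by edgeR. Kcnj3 had 14.2, 17.1 and 13.7 CPM at ZT8 and 11.6, 13.3 and 14.1 CPM at ZT20, which overlapped. The log2 difference for ZT20 minus ZT8 was -0.21 ± 0.09 (SE), with an adjusted p of 0.936 by edgeR. For the 12-h alternation, the 7 members under 0.05 were Kcne4, Kcnk5, Kcnn4, Kcnj2, Kcnab3, Kcnj10 and Kcnu1, with a lowest adjusted p of edgeR of 0.519. Of these, Kcnj10 had 58.8, 49.9 and 54.6 CPM at ZT2, 49.5, 45.3 and 40.9 CPM at ZT8, 46.6, 53.1 and 54.7 CPM at ZT14 and 44.8, 51.4 and 51.4 CPM at ZT20. Its libraries of ZT8 lay below those of ZT2 and overlapped those of ZT14 and ZT20. The satellite glia markers, 8 of 8 measured with Kcnj10 among them, summed to 5481 to 5546 CPM at ZT2, 5144 to 5838 CPM at ZT8, 4886 to 6502 CPM at ZT14 and 5321 to 5883 CPM at ZT20. Most of that sum was Apoe, with a mean of 4440 CPM, so the sum says little about the other markers.

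For channels well known from sensory neurons, the 95% intervals of the differences between opposite times varied in width. For ZT14 minus ZT2 the interval on the log2 scale was -0.25 to 0.06 for Kcna2, -0.17 to 0.19 for Kcnd1, -0.18 to 0.13 for Kcnt1 and -0.21 to 0.18 for Kcnk18. It was wider for Kcnk4, -0.09 to 0.66, for Kcna1, -0.54 to 0.23, for Kcnn1, -0.56 to 0.005, and for Kcnk2, -0.38 to 0.15. For ZT20 minus ZT8 it was -0.23 to 0.08 for Kcna2, -0.23 to 0.13 for Kcnd1, -0.26 to 0.05 for Kcnt1 and -0.32 to 0.07 for Kcnk18. All of these intervals hold 0. Over the 72 members, both intervals lay within 0.5 of 0 on the log2 scale, a factor of 1.41, for 61, and the median distance from estimate to bound was 0.20 in each comparison. The 11 members with an interval reaching beyond 0.5 were Kcna1, Kcnj11, Kcnj2, Kcnj13, Kcnj14, Kcnj8, Kcnk4, Kcnmb2, Kcnn1, Kcnt2 and Kcns2. Of these, Kcnj13 and Kcnj14 had a mean of fewer than 100 approximate reads per library. The widest intervals were those of Kcnj13, -0.71 to 1.095 for ZT14 minus ZT2 and -1.06 to 0.74 for ZT20 minus ZT8.

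**Figure D5:**
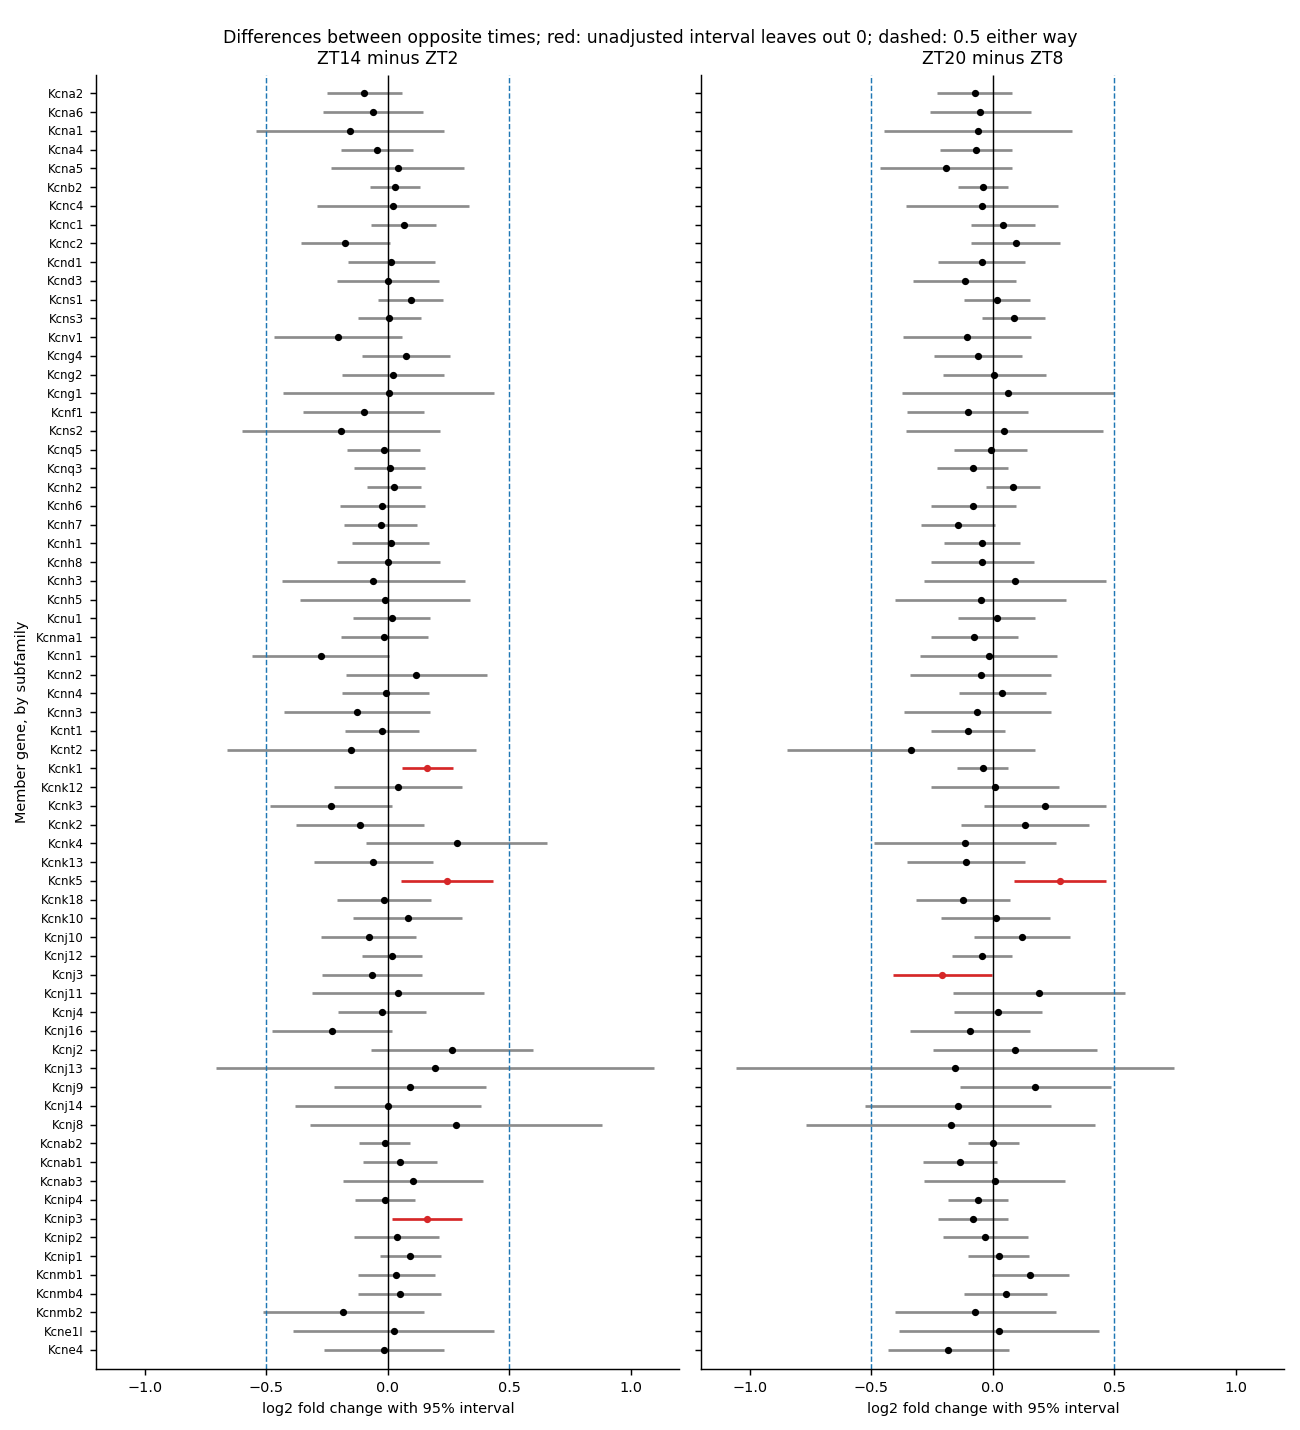
Log2 fold change of the same 68 members for ZT14 minus ZT2 and ZT20 minus ZT8, with unadjusted 95% intervals from the edgeR fit; red marks intervals that leave out 0 and dashed lines mark 0.5 either way. The estimates lie between -0.28 and 0.28 for ZT14 minus ZT2 and between -0.34 and 0.28 for ZT20 minus ZT8.

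Directions were mixed. For ZT14 minus ZT2, 39 of the 72 estimates were above 0, with a median of 0.00, beside 50.0% of all genes tested. For ZT20 minus ZT8, 28 of 72 were above 0, with a median of -0.04, beside 50.5% of all genes tested, whose median was 0.00. The spread of a member over all 12 libraries, as its coefficient of variation, had a median of 7.96% (3.57% for Kcnb2 to 35.3% for Kcnj13), beside 6.83% over the protein-coding genes with at least 1 CPM.

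Libraries differed in the summed level of the skeletal muscle markers, Pvalb among them. Red cell markers, 7 of 7 measured, differed between times. They summed to 1665 to 3993 CPM at ZT2, 2215 to 2407 CPM at ZT8, 3691 to 4040 CPM at ZT14 and 781 to 1232 CPM at ZT20. The libraries of ZT20 thus lay below all others, and 1 of these markers passed the any-time test of edgeR. The library richest in muscle markers at ZT20, replicate 1 with 1315 CPM, was the lowest of its time for 41 of the 72 members (56.9%, against 42.3% of protein-coding genes with at least 1 CPM). The corresponding libraries of the other times were the lowest for 29 members at ZT2 (replicate 2; 40.3%), 32 at ZT8 (replicate 3; 44.4%) and 35 at ZT14 (replicate 1; 48.6%), against 39.0%, 38.4% and 39.1% of those protein-coding genes. The share of members was close to that of protein-coding genes at ZT2, where replicate 1 had nearly the same marker sum and was the lowest for 28 members. The sum of all members was the lowest of its time in the muscle-richest libraries of ZT2, ZT8 and ZT20, at 2895, 2923 and 2887 CPM, and the highest of its time in that of ZT14, at 3012 CPM. The sum of the pore-forming and silent subunits was the lowest of its time in each of these 4 libraries, at 1374, 1363, 1392 and 1333 CPM for ZT2, ZT8, ZT14 and ZT20. The part of muscle or red cell RNA in the levels of the members was not tested. Without these 4 libraries, 0 members passed each of the 5 edgeR tests, and the members with an unadjusted p under 0.05 numbered 8 for any difference between the times (11.1%, against 9.63% of all genes in the same fit) and 8 for the 24-h cosine (11.1%, against 8.56%).

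Partners that place, bind or modify these channels were read from a list of 31 genes, all of which were tested. None passed any of the tests of any difference, the 24-h cosine, ZT14 against ZT2 or ZT20 against ZT8 by edgeR, and 2 had an unadjusted any-time p under 0.05 (6.45%, against 6.19% of all genes), Vapa and Sgk1, a share close to the background. Vapa, which anchors Kcnb channels to the endoplasmic reticulum, averaged 120 ± 3.4, 120 ± 2.9, 119 ± 0.13 and 155 ± 37 CPM in the order ZT2, ZT8, ZT14 and ZT20 (SD over 3 libraries; edgeR adjusted p = 0.734), with its 3 libraries of ZT20 at 194, 119 and 152 CPM. Sgk1, a kinase that acts on channel traffic and responds to glucocorticoids, averaged 27.3 ± 3.9, 30.5 ± 2.9, 35.9 ± 4.5 and 28.4 ± 2.7 CPM (edgeR adjusted p = 0.749). The most abundant partner was Dpp6, an auxiliary subunit of Kcnd channels, at 291 CPM. The median amplitude of the list was 0.06.

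The promoters were searched for the E-box CACGTG, the palindromic site that CLOCK and BMAL1 are known to bind, because 4 members had a low any-time p. RefSeq promoters of GRCm38.p6, from 250 bases before to 50 bases after a transcription start, were available for 52 of the 72 members. The motif, which reads alike on both strands, was present in 7.15% of 32851 promoters and in those of 8.09% of all genes. It was present in 5 of the 52 members (9.62%): Kcnab1, Kcne4, Kcnj2, Kcnk5 and Kcnn4. The windows of 30 bases around it are shown for the 3 of these that are also among the 4 members above, 5′ to 3′ on the gene's strand and with the motif in capitals.
Kcnk5, chr14:20181739-20181768, minus strand: gcagaggcggcaCACGTGtctgctggtgtg
Kcne4, chr1:78816845-78816874, plus strand: ttcctcccggaaCACGTGacgatgcatttc
Kcnj2, chr11:111066068-111066097, plus strand: gggaagcgcagcCACGTGcgctccgattgg
In Kcnk5 the motif lies 26 bases downstream of the RefSeq start, in Kcne4 54 bases and in Kcnj2 84 bases upstream of it. These positions depend on the start used. By GENCODE M21, Kcne4 starts at 78816758, so its motif lies inside the gene. Kcnk5 starts at 20181809 there, so its motif lies further downstream. The fitted 24-h amplitudes of the 5 members with the motif were 0.18 ± 0.04 (SE) for Kcnk5, 0.14 ± 0.08 for Kcnj2, 0.09 ± 0.06 for Kcne4, 0.07 ± 0.03 for Kcnab1 and 0.02 ± 0.04 for Kcnn4. The amplitude of Kcnab1 was 0.03 without ZT20 replicate 1, and over all settings tried those of Kcnj2 and Kcnn4 ran from 0.08 to 0.20 and from 0.01 to 0.08. These matches were looked at after the values were seen and describe letters in a window, not binding.

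Some levels are shared with other genes. Of the 72 members, 23 share more than 50 exon bases with another annotated gene, 21 of them only with genes on the opposite strand, and the sources used here do not say whether strand was used in counting. Kcnj13 shares 623 of its 1270 exon bases with Gigyf2, which had 22.3 CPM, and Kcnk4 shares 587 of 4465 bases with Catsperz on the same strand, which had 18.3 CPM. The levels of Kcnj13 and Kcnk4 are uncertain for that reason.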

How the data were processed

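RNA-seq of lumbar DRG gave 12 libraries, 3 at each of 4 zeitgeber times. The deposited values are estimated counts for each gene, which the authors made with HISAT2 2.2.1 and StringTie 2.1.5 on GRCm38.p6 per the submitters' processing notes; no source used here gives their roles or the step that made the table. The values were taken to be coverage times a constant of each library. Symbols and coordinates came from GENCODE M21; 348 assembled loci, 0.203% to 0.231% of a library, were left out.

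Values were rounded to whole numbers and fitted with edgeR 4.0.16 (filterByExpr on the 4 times, TMM, robust quasi-likelihood F tests) in R 4.3.3, with Benjamini-Hochberg adjustment over 25809 genes. Levels are CPM on TMM library sizes. Alternatives were limma-trend 3.58.1, DESeq2 1.42.0, other filters and scalings, approximate reads and leaving out libraries. The edgeR 24-h test was tried on 12 simulated libraries with 24874 genes. It recovered 50% of 100 genes of amplitude 0.5 and 56% of 100 genes of amplitude 1, with 3 false calls. The changed genes were drawn at random from all genes past the filter, with no threshold of 1 CPM. These rates are therefore not those of the members. Amplitudes as small as those of the members were not simulated. The labels state no pairing of libraries. Deviations of same-numbered libraries correlated between -0.06 and 0.08 over 18 pairs, which cannot tell whether they shared a batch.

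The members, lists and tests were chosen with earlier results of these data known. Members named singly were those with an unadjusted any-time or 24-h p under 0.05, the highest of each subfamily and channels known from sensory neurons or glia; others are given to complete their subfamily. Of the 72 members, 4 enter the sums, counts and tests but are not reported singly here.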

Additional observations from a re-analysis of the deposited data

How the results depend on the processing

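Each of the 5 tests was repeated under 21 other settings, and the 2 pair tests also on only the 6 libraries of the pair. Of the 107 counts of members called that these gave, 106 were 0, as in the edgeR fit reported; the exception was 1 member, Kcnk5, called by DESeq2 for any difference between the times. Leaving out each library in turn gave counts of 0 to 0 in every test. The fit with the replicate number as a block called 0 members in each test, so the block changed no call. Deviations of same-numbered libraries correlated with a median of 0.01, beside 0.006 for differently numbered ones. Of the 12 libraries, 3 correlated best with their own number. These correlations cannot tell whether same-numbered libraries shared a collection or preparation batch. Of 3134 values of the 72 members in other settings, 1, that of Kcnk5 in DESeq2, passed the threshold. Most of these values were amplitudes or ranges, which cannot be negative and so have no direction to change. Log2 differences were included only for members with an unadjusted p under 0.05 in a pair test, and none changed sign. The numbers of members with an unadjusted p under 0.05 moved more: leaving out 1 library gave 2 (without ZT14 replicate 2; 2.78%, against 5.37% of all genes in the same fit) to 7 (without ZT2 replicate 2 or ZT8 replicate 3; 9.72%, against 5.53% and 8.13%) for any difference, and 2 to 5 (without ZT8 replicate 3; 6.94%, against 8.04%) for the 24-h cosine. For the 12-h alternation it gave 4 (without ZT20 replicate 1; 5.56%, against 6.49%) to 15 (without ZT14 replicate 1; 20.8%, against 9.76%), for ZT14 against ZT2 2 (without ZT2 replicate 3; 2.78%, against 4.63%) to 7 (without ZT2 replicate 1; 9.72%, against 5.08%), and for ZT20 against ZT8 1 to 8 (without ZT8 replicate 3; 11.1%, against 9.83%). These shares were not tested. The any-time adjusted p over all settings ran from 0.180 to 0.928 for Kcnk1, from 0.538 to 0.942 for Kcne4 and from 0.517 to 0.958 for Kcnj2. Setting the threshold for members at 0.5 or 5 CPM gave 80 or 52 members in place of 72. The intervals of the differences between times were widest for Kcnj13 and Kcnj8, both under 2 CPM.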
